A study of Homo sapiens with 6 samples.

Results

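The DEAD-box and DEAH-box RNA helicases were examined in A549 cells, a human lung adenocarcinoma line, treated with siRNAs against TIMM13. The members are all genes whose symbol is DDX or DHX followed by a number and an optional letter, that reached 1 in no fewer than 2 of 6 libraries. DDX3Y was left out. Of 54 matching symbols in the table, 47 passed and 7 did not, and the 47 are part of 11486 genes tested among 19990 listed. The member nearest to the threshold on the inside was DDX58, whose second-highest value was 2.49. On the outside was DDX60, whose second-highest value was 0.542. DDX39B, DHX58, DDX25, DDX43, DDX4 and DDX53 also did not pass.

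These enzymes use ATP to unwind RNA duplexes or to strip proteins from RNA, and take their names from the amino acids of a conserved ATPase motif. DEAD-box members mostly open short duplexes locally, whereas DEAH-box members translocate along a strand. Together they serve nearly every step in the life of an RNA: transcription, splicing, export, translation, decay and the building of ribosomes. TIMM13 belongs to the small TIM chaperones of mitochondria, which guide hydrophobic proteins between the outer and inner membranes.

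Poly(A)-selected, strand-specific RNA sequencing was deposited for 2 libraries with a non-targeting control siRNA (genotype given as WT), 2 with TIMM13 siRNA 1 and 2 with TIMM13 siRNA 2 (genotype given as TIMM13 knockdown). The treatment field reads cell differentiation in all 6 libraries, and the control columns are headed NC, so the groups rest on the titles. The labels do not state whether replicates came from separate cultures. The p-values therefore measure only the spread between these libraries, which may be technical.

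The deposited values are a normalized signal per gene, not counts, so depth is unknown. The column totals lay between 205986 and 219820 in 5 libraries and at 299936 in siRNA 2 replicate 2. The correlation of that library with its own replicate was 0.805, against 0.888 for the controls and 0.895 for siRNA 1 (Pearson r across genes, which are not independent). TIMM13 itself stood at 2.09 and 2.56 in the controls, 2.09 and 1.83 with siRNA 1, and 1.82 and 2.31 with siRNA 2. The groups overlapped, and the log2 difference was -0.16 with siRNA 1 (limma adjusted p = 0.653) and -0.12 with siRNA 2 (adjusted p = 0.666). A lower TIMM13 level was thus not detected, and the groups are named by their labels throughout. Of 12 A549 epithelial markers, 11 passed the filter. Of 12 markers of other cell types, 10 were below 1 in every library, and 2, CD14 and COL1A1, passed the filter. The sum of all 12 was 4.61 to 5.48 in the control and siRNA 1 libraries and 9.99 and 11.7 with siRNA 2. CD14 was at 4.09 and 4.47 in the controls, 1.80 and 2.29 with siRNA 1, and 6.99 and 6.44 with siRNA 2. COL1A1 was at 0.757 and 0.795, then 2.32 and 1.83, then 2.58 and 4.24.

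Differences are given on the log2(value + 1) scale, which understates changes of low genes, and a gene was called at a limma adjusted p under 0.05 over all 11486 genes. The spread of each gene was pooled over the 3 groups, so SE and p-values for siRNA 1 also reflect the siRNA 2 replicates. With siRNA 1, 1 of 47 helicases was called, DDX17, against 1.63% of all genes, and 8 had an unadjusted p under 0.05, against 20.5%. With siRNA 2, 0 were called, against 3% of all genes. At an unadjusted p under 0.05 limma gave 12 of 47 there, against 25.7% of all genes. Of these, 11 were higher (12.8% of all genes) and 1, DDX58, was lower (12.9%). For the mean of both siRNAs 1 was called (1.19% of all genes; unadjusted 7, against 23.1%), and between the siRNAs 1 was called (3.27% of all genes), in both cases DDX17.

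**Figure D1:**
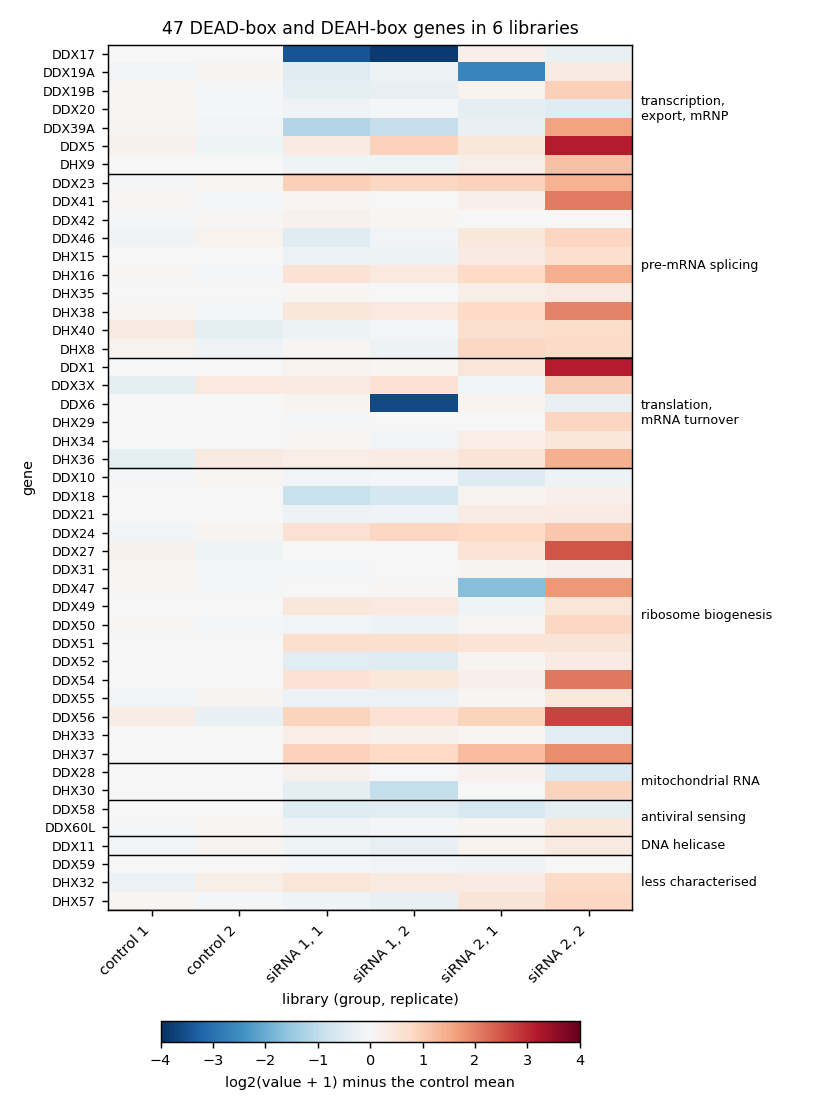
Each row is a helicase, grouped by role, and each column a library. Colour gives the log2(value + 1) difference from the control mean, from blue (lower) to red (higher). DDX17 is the darkest blue in both siRNA 1 libraries, and siRNA 2 replicate 2 is the column with most red.

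Among the helicases that act in transcription, mRNA export and mRNP packaging, DDX17 differed most. DDX17 and its close paralog DDX5 encode helicases that act as transcription coregulators and in alternative splicing and microRNA processing. DDX17 (ENSG00000100201, chr22:38483440-38507660, minus strand, GRCh38) has 12 annotated transcripts, of which 4 are coding. The signal of DDX17 was 81.6 and 83.1 in the controls, 6.53 and 4.86 in the pair labelled siRNA 1, and 94.5 and 67.0 in the pair labelled siRNA 2. Both siRNA 1 libraries lay far below all others, and the siRNA 2 libraries lay on either side of the controls.

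With siRNA 1, DDX17 fell by 3.65 on the log2 scale (SE 0.246, adjusted p = 0.0268, lower in 2 of 2 libraries), from 82.4 ± 1.04 to 5.70 ± 1.18 (SD, n = 2), a 14.5-fold ratio of means. With siRNA 2 the difference was -0.05 (adjusted p = 0.909). The limma test between the siRNAs gave -3.60 (SE 0.246, adjusted p = 0.0232). That call was lost with equal totals (0.0568) and library weights (0.0918). It was also lost with the replicate block (0.110) and only the groups compared (0.120), where 0% of all genes were called. The mean of both siRNAs gave -1.85 (SE 0.213, adjusted p = 0.0470), a value that rests on siRNA 1. Its call was lost with no filter (0.0596), upper-quartile scaling (0.0956), equal totals (0.128) and the replicate block (0.160, 0% of all genes called). The siRNA 1 call was lost under upper-quartile scaling (adjusted p = 0.0507), equal totals (0.0636) and the replicate block (0.118, 0% of all genes called). These calls were also lost without each control or siRNA 1 library, and that loss was not particular to DDX17. Each of those fits leaves a group of 1 library. So does leaving out either siRNA 2 library, where the 3 calls of DDX17 were kept. The siRNA 1 difference was then -3.66 and -3.64 without control replicate 1 or 2, and -3.83 and -3.47 without siRNA 1 replicate 1 or 2. With siRNA 1 the log2 difference stayed between -3.85 and -3.47 in all alternatives run. Its call was kept with the other pseudocount (limma adjusted p = 0.0245) and no filter (0.0400). It was also kept with only the groups compared (0.0113, 20.8% of all genes called) and library weights (0.00237, 26.1%). In RNA from whole cultures, fewer cells expressing a gene and less RNA per cell cannot be told apart.

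DDX5 stood at 24.9 and 19.4 in the controls, 28.1 and 42.2 with siRNA 1, and 30.3 and 204 with siRNA 2. All 4 siRNA libraries lay above both controls, but the replicates of siRNA 2 lay far apart. The log2 difference was 0.62 with siRNA 1 (SE 0.947, adjusted p = 0.783) and 1.80 with siRNA 2 (adjusted p = 0.302). The distance between the siRNA 2 replicates also enters the SE given for siRNA 1. The DDX17 to DDX5 ratio was 3.28 and 4.28 in the controls, 0.232 and 0.115 with siRNA 1, and 3.12 and 0.328 with siRNA 2. DDX17 thus exceeded DDX5 in both controls and siRNA 2 replicate 1, and DDX5 exceeded DDX17 in the other 3 libraries. None of the 10171 stretches of 50 bases in DDX17 transcripts occurs in transcripts of another gene, so reads of this length would separate it from DDX5.

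**Figure D2:**
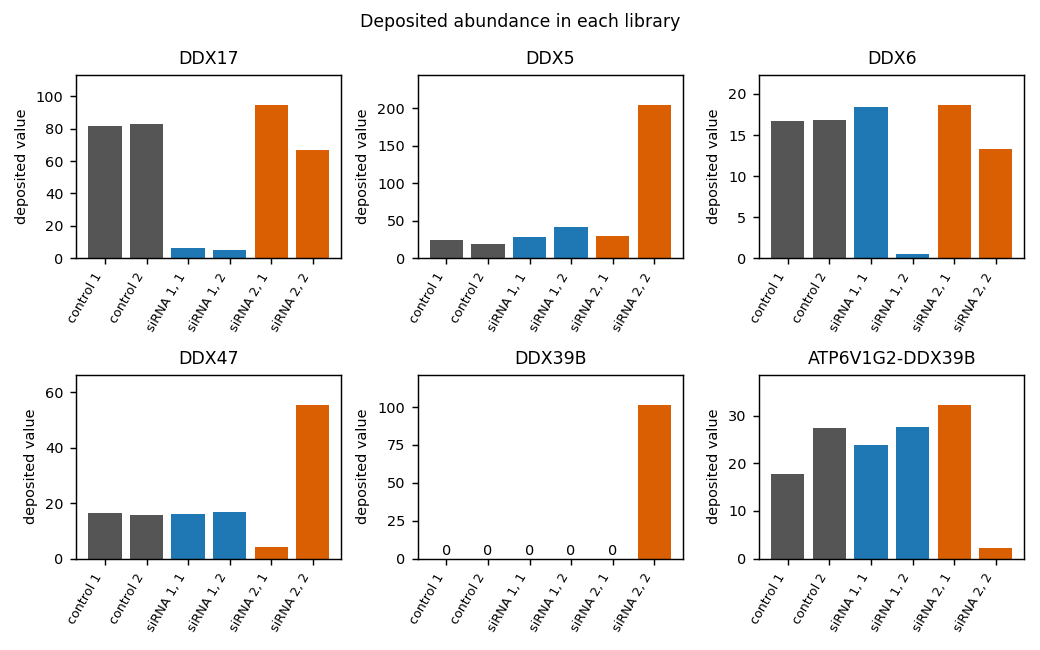
Bars from 0 give the deposited signal of DDX17, DDX5, DDX6, DDX47, DDX39B and the readthrough gene ATP6V1G2-DDX39B in each of 6 libraries. DDX17 is low in both siRNA 1 libraries, whereas the odd bars of DDX5, DDX6, DDX47 and DDX39B belong to 1 library each.

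Promoters were compared over 42 of 47 helicases with a RefSeq window of 250 bases before and 50 after the start (GRCh38.p14). The letters CCGGAAG or, on the other strand, CTTCCGG, an ETS-type site, occurred in 22 of 42 (52.4%), against 23.3% of 9300 tested genes with a window. CACGTG, the E box, occurred in 9 of 42 (21.4%, against 12.9%), and CCAAT or ATTGG in 21 (50%, against 43.6%). GGGCGG or CCGCCC, the GC box, occurred in 28 (66.7%, against 78.2%), and TATAAA or TTTATA in 3 (7.14%, against 8.13%). The bases before the RefSeq start of DDX17 and of 4 further genes with small p for the siRNA average are printed 5′ to 3′, since DDX17 is the called gene and the others lie above both controls with each siRNA. Bases within annotated exons were trimmed, and capitals mark matches to the 5 motifs. The windows of DDX17 and DDX23 lie inside the gene bounds of GENCODE, whose outermost start is 1099 and 429 bases further upstream, so they precede an internal start, whereas the other 3 lie outside. The printed DDX17 window holds none of the 5 motifs, which says nothing of the region before its outermost start.
DDX17 (chr22:38506338-38506561, minus strand): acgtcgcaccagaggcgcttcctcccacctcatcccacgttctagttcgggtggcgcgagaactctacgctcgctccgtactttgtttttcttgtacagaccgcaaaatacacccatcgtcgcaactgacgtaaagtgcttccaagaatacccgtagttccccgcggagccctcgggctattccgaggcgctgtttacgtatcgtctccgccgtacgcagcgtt
DDX23 (chr12:48852164-48852413, minus strand): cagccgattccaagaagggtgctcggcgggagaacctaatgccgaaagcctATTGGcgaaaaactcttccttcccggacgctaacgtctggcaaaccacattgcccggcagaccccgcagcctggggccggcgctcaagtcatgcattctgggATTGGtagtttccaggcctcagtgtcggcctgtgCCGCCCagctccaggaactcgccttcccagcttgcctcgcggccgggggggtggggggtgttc
DHX37 (chr12:124989132-124989381, minus strand): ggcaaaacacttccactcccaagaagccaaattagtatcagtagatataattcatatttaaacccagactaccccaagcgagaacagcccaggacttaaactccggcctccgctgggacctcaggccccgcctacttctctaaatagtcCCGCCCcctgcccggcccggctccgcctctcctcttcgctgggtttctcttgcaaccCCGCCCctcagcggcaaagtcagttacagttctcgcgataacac
DDX24 (chr14:94081246-94081452, minus strand): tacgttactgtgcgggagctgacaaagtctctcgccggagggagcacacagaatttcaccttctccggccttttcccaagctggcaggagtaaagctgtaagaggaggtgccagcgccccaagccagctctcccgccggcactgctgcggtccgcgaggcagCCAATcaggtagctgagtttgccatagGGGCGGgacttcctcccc
DDX51 (chr12:132144336-132144569, minus strand): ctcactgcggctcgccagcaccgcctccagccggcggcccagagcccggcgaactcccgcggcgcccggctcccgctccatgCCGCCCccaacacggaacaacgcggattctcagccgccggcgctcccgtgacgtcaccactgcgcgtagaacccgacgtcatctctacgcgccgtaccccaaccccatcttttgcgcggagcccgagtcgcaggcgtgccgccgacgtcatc

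DDX39A, a paralog of the mRNA export helicase DDX39B, stood at 9.30 and 7.74 in the controls, 3.26 and 3.97 with siRNA 1, and 6.71 and 27.7 with siRNA 2. The siRNA 1 libraries were the lowest, and the siRNA 2 replicates fell on both sides of the controls. Its log2 difference with siRNA 1 was -1.05 (SE 0.661, adjusted p = 0.463), an SE that also holds the spread of the siRNA 2 replicates. In the fit of only the groups compared, DDX39A was called with siRNA 1, where 20.8% of all genes were. DDX19A and DDX19B, helicases that release proteins from mRNA at the nuclear pore, differed from each other in siRNA 2 replicate 1. There DDX19A was at 1.73, against 14.9 and 17.2 in the controls and 21.0 in replicate 2, while DDX19B was at 6.004, against 5.68 and 5.10 in the controls and 11.3 in replicate 2. With siRNA 1 DDX19A was at 11.3 and 13.7 and DDX19B at 4.02 and 4.04, both below the controls. These genes overlap other annotated transcripts: 22.3% of the 50-base stretches of DDX19A and 30.4% of those of DDX19B also occur in another gene, so their reads may be split.

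DHX9, a helicase of transcription and of double-stranded RNA, stood at 28.5 and 27.3 in the controls, 24.5 and 24.4 with siRNA 1, and 33.0 and 64.7 with siRNA 2. The groups did not overlap, with siRNA 1 lowest. DDX20, a subunit of the SMN complex that assembles spliceosomal snRNPs, was at 6.52 and 5.83 in the controls, 5.50 and 5.72 with siRNA 1, and 4.53 and 4.16 with siRNA 2. Both siRNA groups lay below the controls, and the log2 difference with siRNA 2 was -0.42 (adjusted p = 0.200).

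Splicing helicases drive the rearrangements of the spliceosome, from its assembly on the branch site to its release from the mRNA. None of the 10 was called with siRNA 1 or siRNA 2, where 1.63% and 3% of all genes were. At an unadjusted p under 0.05, limma gave 1 with siRNA 1 (DDX23; 20.5% of all genes) and 6 with siRNA 2, all higher (12.8% of all genes). With siRNA 2, 9 of 10 lay above both controls in both libraries, against 33.7% of all genes, and 0 below. Their median log2 difference was 0.74 with siRNA 2, against 0.45 for all 47 helicases and 0.14 for all genes tested, and 0.02 with siRNA 1.

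DDX23, a helicase of the tri-snRNP that is needed to activate the spliceosome, stood at 13.05 and 14.5 in the controls, 27.4 and 25.2 with siRNA 1, and 26.7 and 37.5 with siRNA 2. All 4 siRNA libraries lay above both controls. The log2 difference was 0.89 with siRNA 1 (SE 0.222, adjusted p = 0.126) and 1.15 with siRNA 2 (SE 0.222, adjusted p = 0.0701).

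DHX16, which acts just before the first catalytic step, was at 3.95 and 3.59 in the controls, 6.13 and 5.22 with siRNA 1, and 7.24 and 12.2 with siRNA 2. DHX38, which acts before exon ligation, was at 3.81 and 3.36, then 5.29 and 4.99, then 6.98 and 17.0. In both genes every siRNA library exceeded both controls, and siRNA 2 replicate 2 was the highest. The log2 difference with siRNA 2 was 1.13 for DHX16 (adjusted p = 0.104) and 1.39 for DHX38 (adjusted p = 0.139).

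DHX8, which releases the spliced mRNA, differed between the siRNAs in its values: 10.9 and 9.01 in the controls, 10.3 and 8.50 with siRNA 1, and 18.3 and 17.6 with siRNA 2. Both siRNA 2 libraries were close together and above all others. The log2 difference with siRNA 2 was 0.79 (SE 0.191, adjusted p = 0.0980), and siRNA 1 minus siRNA 2 was -0.87 (adjusted p = 0.0853). DHX15, which takes the spent spliceosome apart, was at 47.8 and 47.5 in the controls, 40.4 and 41.0 with siRNA 1, and 59.6 and 76.4 with siRNA 2. The groups did not overlap, with siRNA 1 lowest and siRNA 2 highest. DDX42, linked to the branch-site complex, was at 31.9 and 33.5 in the controls, 36.9 and 34.5 with siRNA 1, and 32.5 and 33.3 with siRNA 2, and is the splicing member whose siRNA 2 values lay within the controls.

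The other splicing members were DDX41, DDX46, DHX35 and DHX40, and in each both siRNA 2 libraries exceeded both controls. DDX41, a spliceosomal helicase mutated in some myeloid neoplasms, stood at 6.25 and 5.83 in the controls, 6.38 and 6.04 with siRNA 1, and 7.17 and 28.5 with siRNA 2. DDX46, which acts at the branch site, was at 16.3 and 19.6, then 12.5 and 16.3, then 25.1 and 33.0. For DDX41 the high value is that of siRNA 2 replicate 2, whereas both siRNA 2 libraries of DDX46 stood clear of the rest.

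**Figure D3:**
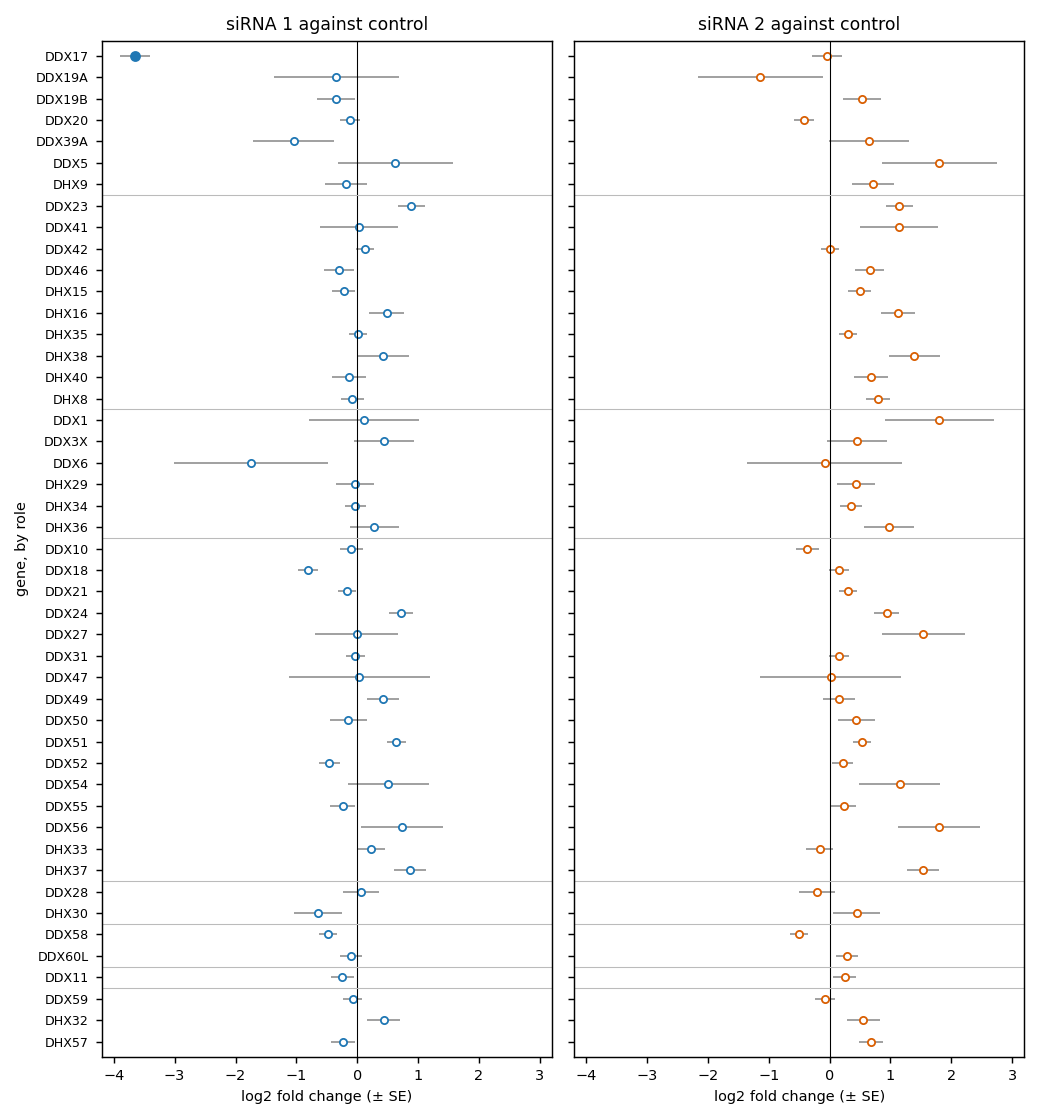
Points give each helicase's log2(value + 1) difference from control with siRNA 1 and with siRNA 2, with bars of 1 SE from limma. The only filled point, which marks a called gene, is DDX17 with siRNA 1.

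The helicase with the highest control level, DDX3X, acts in translation. If the values are taken as scaled to length, the order of control levels began with DDX3X (93.9 ± 36.4, SD, n = 2), DDX17 (82.4 ± 1.04), DDX21 (65.6 ± 0.540), DHX15 (47.7 ± 0.182), DDX18 (33.8 ± 0.823) and DDX42 (32.7 ± 1.16). DDX3X and DDX17 did not differ beyond their spread, nor did DDX18 and DDX42. The control means of all 47 ran from 2.45 to 93.9.

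DDX3X, which helps translation of mRNAs with structured leaders, stood at 68.2 and 119.6 in the controls, 113 and 135 with siRNA 1, and 83.9 and 184 with siRNA 2. The 3 groups overlapped. DDX6, the decapping and translational repression helicase of P bodies, stood at 16.7 and 16.9 in the controls, 18.4 and 0.461 with siRNA 1, and 18.6 and 13.4 with siRNA 2. The low value belongs to siRNA 1 replicate 2, and DDX6 was the only helicase whose siRNA 1 replicates were over 2-fold apart, against 9.19% of all genes.

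DDX1, a component of the tRNA ligase complex, was at 10.3 in both controls, 11.4 and 11.02 with siRNA 1, and 14.8 and 97.7 with siRNA 2. DHX36, which unwinds G-quadruplexes, was at 4.73 and 8.35 in the controls, 7.86 and 7.95 with siRNA 1, and 9.52 and 18.7 with siRNA 2. DHX29, which helps the small ribosomal subunit scan, was at 7.93 in both controls, 7.57 and 7.80 with siRNA 1, and 8.10 and 15.1 with siRNA 2. In these 3 genes the value that stands out is that of siRNA 2 replicate 2. None of the 6 members of this role was called in any comparison, where 1.19% to 3.27% of all genes were. They include DHX34, a factor of nonsense-mediated decay, at 5.21 and 4.97 in the controls.

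Ribosome biogenesis helicases remodel pre-ribosomal RNA and release snoRNAs in the nucleolus. None of the 16 was called in any comparison, where 1.19% to 3.27% of all genes were. With siRNA 2, 10 of 16 lay above both controls in both libraries (33.7% of all genes) and 1, DDX10, lay below (25.9%). Their median log2 difference was 0.01 with siRNA 1 and 0.27 with siRNA 2.

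DHX37, needed for maturation of the small subunit, stood at 2.38 and 2.51 in the controls, 5.57 and 4.98 with siRNA 1, and 7.02 and 11.4 with siRNA 2. It had the lowest control mean of the 47, and all siRNA libraries exceeded both controls. The log2 difference was 0.86 with siRNA 1 (SE 0.262, adjusted p = 0.172) and 1.54 with siRNA 2 (SE 0.262, adjusted p = 0.0591). DDX24, a nucleolar helicase, was at 8.83 and 10.5 in the controls, 15.4 and 17.7 with siRNA 1, and 17.3 and 21.6 with siRNA 2. DDX51, which acts in large-subunit maturation, was at 4.19 and 4.24, then 7.12 and 7.16, then 6.70 and 6.39. Both genes were above both controls in all 4 siRNA libraries, with log2 differences for the mean of both siRNAs of 0.83 (adjusted p = 0.0933) and 0.59 (adjusted p = 0.105).

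DDX18, which acts in early assembly of the large subunit, had the reverse arrangement with siRNA 1. Its signal was 34.4 and 33.2 in the controls, 17.6 and 20.2 with siRNA 1, and 36.2 and 39.3 with siRNA 2. The siRNA 1 libraries were the lowest and the siRNA 2 libraries the highest. The log2 difference with siRNA 1 was -0.81 (SE 0.162, adjusted p = 0.0890), and siRNA 1 minus siRNA 2 was -0.96 (adjusted p = 0.0566). DDX52, a small-subunit helicase, was at 12.3 and 12.2 in the controls, 8.77 and 8.55 with siRNA 1, and 13.2 and 15.7 with siRNA 2, in the same order of groups.

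DDX21, which links RNA polymerase I transcription to rRNA processing, stood at 66.0 and 65.2 in the controls, 57.2 and 59.1 with siRNA 1, and 80.6 and 82.2 with siRNA 2. Its paralog DDX50 was at 11.2 and 10.4, then 10.0 and 9.30, then 11.1 and 20.1. The groups did not overlap for DDX21, while the siRNA 2 values of DDX50 overlapped the controls. DDX47, a small-subunit helicase, was at 16.4 and 15.6 in the controls, 16.1 and 16.7 with siRNA 1, and 4.24 and 55.2 with siRNA 2. The siRNA 2 replicates lay on opposite sides of the other 4 libraries. Of the 50-base stretches of DDX47, 33.9% also occur in another gene, and 33.8% occur in APOLD1. APOLD1 was low throughout, at 0.372 and 0.269 in the controls, 0.367 and 0.355 with siRNA 1, and 0.519 and 0.212 with siRNA 2. Whether shared reads had a part in the DDX47 values was not tested.

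The other nucleolar members were DDX10, DDX27, DDX31, DDX49, DDX54, DDX55, DDX56 and DHX33. DDX56, which acts on the large subunit, stood at 8.77 and 5.34 in the controls, 13.6 and 10.9 with siRNA 1, and 13.5 and 50.8 with siRNA 2. DDX54, a nucleolar helicase, was at 2.48 and 2.51, then 4.26 and 3.68, then 2.98 and 14.2. DDX56 and DDX54 lay above both controls in all 4 siRNA libraries. DDX27, another large-subunit factor, was at 5.70 and 4.32, then 4.96 and 4.91, then 7.79 and 33.3. DDX10 was at 8.37 and 9.39, then 8.05 and 8.39, then 5.90 and 7.48, the lowest values being those of siRNA 2.

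The mitochondrial and antiviral members, 2 of each, were not called in any comparison, where 1.19% to 3.27% of all genes were. DHX30, which acts in assembly of the mitochondrial ribosome, stood at 10.1 in both controls, 7.70 and 4.77 with siRNA 1, and 9.99 and 19.8 with siRNA 2. DDX28, which acts in the same assembly, was at 12.6 and 13.2, then 14.5 and 12.6, then 14.6 and 8.25. Of this pair, DHX30 lay below both controls in both siRNA 1 libraries. DDX58, which encodes the RNA sensor RIG-I, was at 2.63 and 2.49 in the controls, 1.55 and 1.58 with siRNA 1, and 1.30 and 1.73 with siRNA 2. All siRNA libraries lay below the controls, with a log2 difference for the mean of both of -0.49 (SE 0.128, adjusted p = 0.125). DDX60L, an interferon-inducible relative, was at 2.35 and 2.68, then 2.15 and 2.39, then 2.83 and 3.77.

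DDX11, a DNA helicase of sister chromatid cohesion, was at 4.53 and 5.44 in the controls, 4.27 and 3.79 with siRNA 1, and 5.53 and 6.67 with siRNA 2. The less characterised DDX59, DHX32 and DHX57 had the following values. DDX59 was at 7.97 and 7.83, then 7.60 and 7.29, then 7.12 and 7.82. DHX32 was at 10.8 and 15.7, then 18.8 and 17.2, then 16.8 and 23.0, above both controls in all siRNA libraries. DHX57 was at 7.20 and 6.36, then 5.96 and 5.27, then 10.1 and 12.9, so its 3 groups did not overlap.

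Over all 47 helicases, both siRNA 1 libraries lay above both controls in 14 genes (36.8% of all genes) and below them in 18 (31.1% of all genes). With siRNA 2, 30 lay above (33.7%) and 4 below (25.9%), the latter being DDX10, DDX20, DDX58 and DDX59. In both siRNAs 11 lay above (18.3%) and 3 below (14.7%). Between the siRNAs, both siRNA 2 libraries lay above both siRNA 1 libraries in 28 (30.8%) and below them in 5 (26.4%). At an unadjusted p under 0.05, siRNA 1 minus siRNA 2 was negative in 11 helicases (11.7% of all genes) and positive in 0 (12.7%), together 11 of 47 (24.3%). The share above both controls with siRNA 2, 63.8% of helicases, exceeded the 33.7% of all genes, and no test was made of that difference.

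The siRNA 2 pattern moved with replicate 2, the library with the highest column total. Its summed level of A549 epithelial markers was also the highest (12019, against 5109 to 5593 in the other 5). The largest terms of that sum were ALDH1A1 (5306, against 1756 and 1831 in the controls) and AKR1C2 (2321, against 543 and 535). The markers did not move together, since AKR1B10 (408, against 1139 and 1186) and ALDH3A1 (129, against 156 and 145) were below both controls there. Replicate 2 of siRNA 2 was the highest of 6 in 36 of 47 helicases, against 34.9% of all genes, and was above replicate 1 in 40, against 50.7%. Replicates of siRNA 2 were over 2-fold apart for 11 helicases, against 24.7% of all genes, and control replicates for 0, against 9.63%. The median log2 difference from the control mean was 0.77 in replicate 2 and 0.19 in replicate 1, against 0.17 and 0.07 for all genes. More than 1 log2 unit above the control mean were 16 helicases in replicate 2 (34.0%, against 22.6% of all genes) and 1 in replicate 1, below the 7.30% of all genes there.

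With columns scaled to equal totals, the all-gene median of siRNA 2 minus control moved from 0.14 to -0.06 and the helicase median from 0.45 to 0.21. Relative to all genes the helicases stood 0.31 higher before scaling and 0.27 higher after. The shift was not particular to them: before scaling, the median was 0.77 in 59 partners of the helicases and 0.37 in 17 other RNA helicases. The number of helicases above both controls in both siRNA 2 libraries went from 30 to 23 (48.9%, against 23.1% of all genes). The number with the highest value in replicate 2 went from 36 to 17 (36.2%, against 19.97%). Without replicate 1 of siRNA 2 the limma fit called 24 helicases for siRNA 2 (40.6% of all genes), and without replicate 2 it called 6 (15.3%). Both called DDX23, DHX37 and DHX38 higher, and called DDX47 in opposite directions. The lone siRNA 2 library is there assumed to vary like the other groups, and whether the depth or quality of replicate 2 had a part was not tested.

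**Figure D4:**
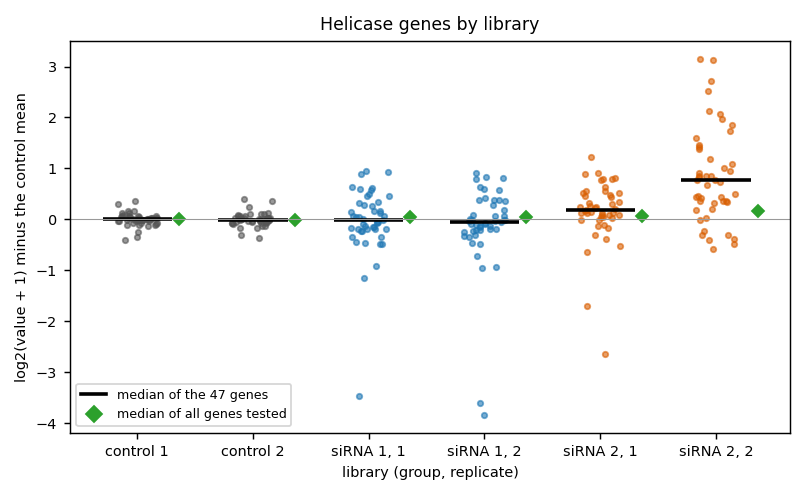
Each point is a helicase's log2(value + 1) difference from the control mean in 1 library, with a black line at the helicase median and a green diamond at the median of all genes tested. The helicase median is 0.77 in siRNA 2 replicate 2 and 0.19 in replicate 1.

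Outside the DDX and DHX symbols, none of 17 other RNA helicases tested was called in any comparison, where 1.19% to 3.27% of all genes were. EIF4A2, the translation initiation helicase, stood at 43.9 and 49.6 in the controls, 67.6 and 72.5 with siRNA 1, and 95.6 and 140.3 with siRNA 2. The groups did not overlap, with a log2 difference of 1.29 with siRNA 2 (adjusted p = 0.0671). EIF4A3, a core of the exon junction complex, was at 10.7 and 9.27, then 8.47 and 9.31, then 13.3 and 60.1. ZNFX1, an antiviral helicase, was at 5.05 and 4.50, then 9.35 and 7.50, then 7.57 and 5.52. Of 59 partners of the helicases, 1 was called with siRNA 2, where 3% of all genes were, so the share was not above the background. It was GPATCH3, whose product carries the G-patch motif that binds DEAH-box helicases. GPATCH3 was at 1.19 and 1.92 in the controls, 3.12 and 3.33 with siRNA 1, and 6.23 and 5.88 with siRNA 2, and rose with siRNA 2, by 1.48 on the log2 scale (SE 0.198, adjusted p = 0.0426). The GPATCH3 call was lost with the other pseudocount (limma adjusted p = 0.0523), no filter (0.0540), upper-quartile scaling (0.0902), equal totals (0.117) and library weights (0.196). It was also lost with the replicate block (0.130) and only the groups compared (0.164), where 0% of all genes were called with siRNA 2. Leaving out each control or siRNA 1 library lost it too, a loss not particular to GPATCH3. Its difference was then 1.27 and 1.68 without control replicate 1 or 2, and 1.48 without either siRNA 1 library. Only leaving out siRNA 2 replicate 1 or 2 kept the call, with differences of 1.44 and 1.51. EIF4B, a cofactor of the initiation helicase, was at 141 and 146, then 248 and 238, then 243 and 225.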

How the data were processed

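RNA from 6 A549 libraries was measured by poly(A)-selected, dUTP strand-specific sequencing, per the labels' protocols. The authors deposited 1 table of 19990 gene symbols by 6 columns holding a normalized signal per gene. Its kind (FPKM, TPM or other) and scaling are not given in the sources used here. Trim Galore, STAR, featureCounts and build hg38 are named in the submitters' processing notes, with no versions. Depth is unknown and no count test was run.

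The 11486 genes that reached 1 in no fewer than 2 libraries were tested as log2(value + 1) in limma 3.58.1 (R 4.3.3), with 1 term per group and 3 residual degrees of freedom, using trend and robust options. Adjusted p-values are Benjamini-Hochberg values over all genes tested. The procedure was tested on simulated data. Tables and figures used Python 3.11.15, numpy 2.4.6, pandas 2.3.3 and matplotlib 3.10.9. Coordinates are from GENCODE 29 on GRCh38, and promoters from RefSeq.

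The members and lists were chosen with earlier results of these data known. DDX59, DHX32 and DHX57 were moved to a less characterised group after values were seen. Named genes were called members, up to 4 per role ranked by p for the siRNA average, the 6 highest in control, set paralog pairs and selected companions; others were named after their values were seen. Alternatives were another pseudocount, no filter, 2 scalings, leaving out each library, a replicate block, fits of only the groups compared and library weights.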

Additional observations from a re-analysis of the deposited data

Results flagged for a closer look

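DDX17 differed between the siRNAs: siRNA 1 minus siRNA 2 was -3.60 on the log2 scale (limma adjusted p = 0.0232), while its signal fell with siRNA 1 and a fall with siRNA 2 was not detected. The call between the siRNAs was lost with equal totals (limma adjusted p = 0.0568) and library weights (0.0918). It was also lost with only the groups compared (0.120) and the replicate block (0.110), where 0% of all genes were called. Leaving out each control or siRNA 1 library lost it too, a loss not particular to DDX17, with differences from -3.78 to -3.42.

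DDX39B and DDX60 did not pass the filter on low values but were listed above the control libraries in siRNA 2 replicate 2. The division of reads between overlapping symbols is not stated, so neither the 0 nor the high value of DDX39B can be read as a level of its mRNA. DDX39B, the mRNA export helicase of the TREX complex, was listed at 0 in 5 libraries and at 101 in siRNA 2 replicate 2. The readthrough gene ATP6V1G2-DDX39B, which shares 26.3% of the 50-base stretches of DDX39B, stood at 17.6 and 27.4 in the controls, 23.7 and 27.6 with siRNA 1, and 32.1 and 2.15 with siRNA 2. EIF4A1, an initiation helicase that every cell uses, was also listed at 0 in 5 libraries and at 395 in siRNA 2 replicate 2. Its readthrough gene SENP3-EIF4A1 stood at 0.309 and 0.272 in the controls, 0.486 and 0.389 with siRNA 1, and 0.462 and 4.51 with siRNA 2. Unlike ATP6V1G2-DDX39B, it was thus low where EIF4A1 was at 0 and highest in siRNA 2 replicate 2. Genes listed at 0 in 5 libraries and above 20 in the other numbered 7 for siRNA 2 replicate 2, 1 each for control replicate 1 and siRNA 1 replicate 1, and 0 for the rest. DDX60, an interferon-inducible helicase, reached 1.56 in siRNA 2 replicate 2, against 0.342 and 0.372 in the controls.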

How the results depend on the processing

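The number of helicases called with siRNA 1 was 1 (1.63% of all genes). It became 0 under upper-quartile scaling (0.270% of all genes), equal totals (0.226%) and the replicate block (0%, limma adjusted p of DDX17 0.118). It became 9 (19.1%) with library weights or only the groups compared, where 26.1% and 20.8% of all genes were called. In both fits the 9 were DDX17, DDX18, DDX23, DDX24, DDX39A, DDX51, DDX52, DDX58 and DHX37. For the mean of both siRNAs the number called went from 1 (1.19% of all genes) to 0 with no filter (0.254%), both scalings (0.313%) and the replicate block (0%). With library weights it went to 3 (6.38%), against 6.89% of all genes. Between the siRNAs it went from 1 (3.27% of all genes) to 0 with equal totals (0.331%), the replicate block (0%), only the groups compared (0%) and library weights (0.0435%). Leaving out 1 library gave 0 to 9 calls with siRNA 1, 0 to 24 with siRNA 2, 0 to 19 for their mean and 0 to 28 between them; the highest counts came without siRNA 2 replicate 1, where 20.5%, 40.6%, 35.4% and 39.9% of all genes were called, and for siRNA 1 also without replicate 2. Deviations of same-numbered libraries from their group means had r of 0.00136, -0.00332 and 0.0459 across genes. Such values cannot exclude a shared culture or batch, and the labels give no more than the replicate number. Of 2652 alternative values of the helicases and named companions, 2468 kept the same status, either called or not called. A further 34 lost a call, 147 gained one and 3 were called with the opposite sign. Few values had a call to lose: DDX17 with siRNA 1, for the mean and between the siRNAs, and GPATCH3 with siRNA 2. The 34 losses are theirs, so the 2468 are mostly values never called. Of 208 values, 54 changed sign under at least 1 alternative. The 3 called with the opposite sign are values of DDX47, whose siRNA 2 replicates lay on opposite sides of the other libraries. Its siRNA 2 difference of 0.01 became 1.73 without siRNA 2 replicate 1 and -1.70 without replicate 2, its mean of 0.02 became 0.88 and -0.83, and siRNA 1 minus siRNA 2, 0.02, became -1.69 and 1.73. The cause of the other moves was not tested. Depth is unknown, so no detection limit can be given.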
